A study of Mus musculus with 24 samples.

Results

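The response of mouse liver to MitoCDNB at 4 h was measured by RNA-seq over all genes counted, as 6 livers given MitoCDNB against 6 given vehicle. These 12 libraries, picked by treatment and time from the sample titles, are part of a study of 24. The other 12 hold both treatments at 1 h. They entered the model for the spread between mice, and their values are set beside those of 4 h for the same genes. All mice were of strain C57BL/6, and the labels name no altered allele. MitoCDNB was given at 5 mg/kg, the vehicle held 0.1% ethanol, and polyadenylated RNA came from the medial lobe of the liver. The sources used here do not give the sex and age of the mice or the route of injection. MitoCDNB joins chlorodinitrobenzene, which conjugates glutathione and inhibits thioredoxin reductase, to a triphenylphosphonium cation that gathers in mitochondria. No group received the cation alone, so effects of the cation and of the chlorodinitrobenzene part cannot be told apart in this design.

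The mitochondrial matrix keeps its protein thiols reduced by a glutathione system and by thioredoxin 2 with its reductase and peroxiredoxin 3, and both draw electrons from NADPH. When cytosolic thiols are modified, the sensor KEAP1 releases the transcription factor NRF2, which raises genes of glutathione synthesis and thiol repair. Hepatocytes make up most of the liver's mass and divide their work along the lobule, with urea synthesis and gluconeogenesis near the portal vein and drug metabolism near the central vein. Sinusoidal endothelium, Kupffer cells and stellate cells share the tissue with them.

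Total counts at 4 h ran from 25.13 to 37.23 M per library. Hepatocyte markers summed to between 66290 and 94820 CPM, which are counts scaled to a common library size, in the 12 libraries, against 10.1 to 17.8 CPM for neuron and glia, 12.1 to 24.2 CPM for pancreatic acinar and 3.03 to 5.39 CPM for skeletal muscle markers, so the tissue matched its label. On the first principal component of log2 CPM, which held 21.3% of the variance at 4 h, vehicle replicate 1 (30.6) and MitoCDNB replicate 2 (37.9) stood apart from the other 10 libraries (-28.6 to 10.4). These 2 libraries also had the highest sum over the neutrophil marker list, at 184 and 81.8 CPM against 14.5 to 35.7 CPM elsewhere. The neutrophil gene S100a9 did not follow that sum. It lay at 0.905 CPM in vehicle replicate 1 and 0.802 CPM in MitoCDNB replicate 2, against 2.04 CPM in vehicle replicate 2. Whether the livers differed in neutrophils was not tested. Vehicle replicate 4 had 1071 CPM of Kupffer cell and macrophage markers, against 486 to 638 CPM in the other 11. For part of the genes and lists that rest on these libraries, values are also given without 1 or more of them.

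At 4 h, 114 of 13833 tested genes passed an adjusted p under 0.05 in the quasi-likelihood test of edgeR, which is 0.824% of the genes. Of these, 63 were higher with MitoCDNB (0.455%) and 51 lower (0.369%). Most shifts were small: the median size among called genes was 0.58 on the log2 scale, and 16 rises and 10 falls reached 2-fold. In 53 of the 114, or 46.5%, the 6 MitoCDNB libraries did not overlap the 6 vehicle libraries in CPM, as was so for 0.896% of all genes tested. The median log2 fold change of all genes was -0.0044. An unadjusted p below 0.05 was held by 1981 of the 13833 genes, and counts at that level within lists are to be read against this.

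**Figure D1:**
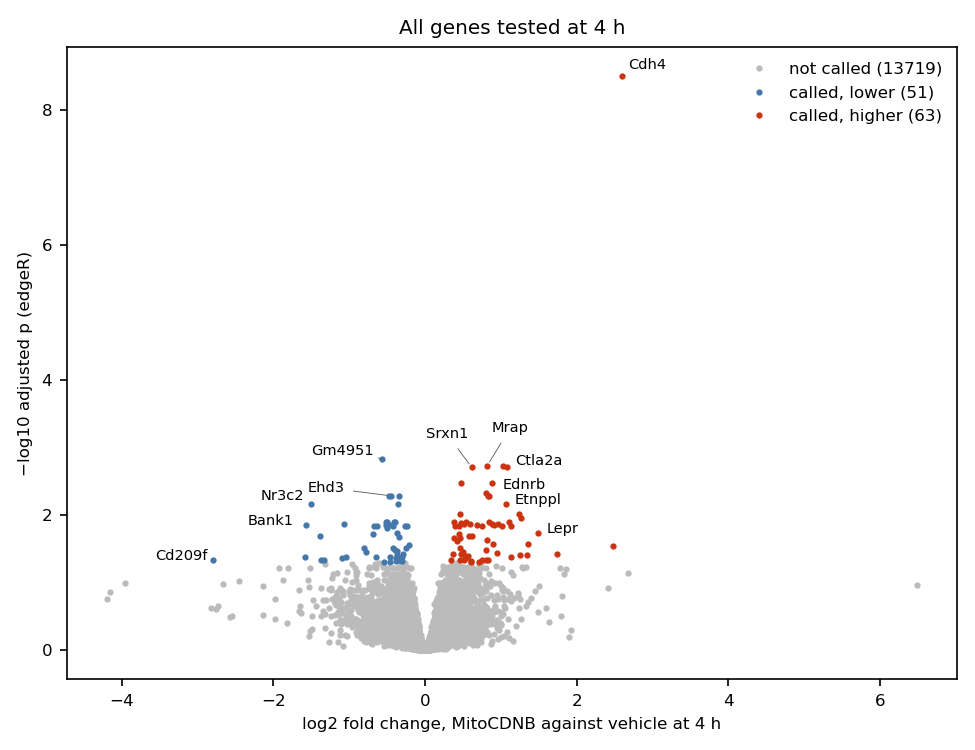
Log2 fold change of MitoCDNB against vehicle at 4 h (x axis) against −log10 of the adjusted p from edgeR (y axis), with a point per tested gene. The 63 genes called higher are red, the 51 called lower are blue, and Cdh4 lies far above the rest at an adjusted p of 3.07e-09.

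How many genes were called varied with the fit and with the libraries kept in it. With the 4 h libraries alone in the fit, 18 genes were called, 15 higher and 3 lower, of which 13 were among the 114. DESeq2 called 348, and without vehicle replicate 1 edgeR called 412, with all 114 among them. Counts within gene lists from these fits are to be read against these larger totals, not against the share of the main fit. The other single omissions gave 63 to 134 calls. In the fits where they were tested, the 114 genes kept their direction. A core of 11 genes was called in every alternative fit and in all 12 single omissions. It holds the rises of Cdh4, Srxn1, Nr1d1, Eml1, Ctla2a, Ednrb, Mrap, Etnppl and Agt and the falls of Ehd3 and Gm4951.

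The largest rise among called genes of at least 1 CPM was in Cdh4, the gene of R-cadherin, a calcium-dependent adhesion protein of the classical cadherin family. Cdh4 (chr2:179442431-179899373, mm10) ranged from 0.618 to 1.16 CPM with vehicle (median 0.751) and from 4.10 to 6.02 CPM with MitoCDNB (median 5.04). The groups were far apart, and the lowest MitoCDNB library was above the highest vehicle library (log2 fold change 2.59, SE 0.19, adjusted p = 3.07e-09). It kept its call in every omission, where the largest adjusted p was 3.49e-08. No other gene of the list of classical cadherins, catenins and junctions was called. So 1 of 25 tested members rose and 0 fell, against 0.455% and 0.369% of all tested genes, and the list median was -0.01. The unadjusted p was below 0.05 in 6, DESeq2 called 2 higher and 1 lower, and limma-voom called 1 higher. The epithelial cadherin Cdh1 (log2 -0.02, adjusted p = 0.979) and the neural cadherin Cdh2 (log2 0.02, adjusted p = 0.951), which hepatocytes also carry, had values close to 0.

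Other rises of the core were in genes with roles in hormone signalling, vessel tone and the cytoskeleton, and in a protease inhibitor. Ctla2a (chr13:60934155-60936625), which codes for an inhibitor of cysteine proteases, ranged from 1.24 to 1.86 CPM with vehicle (median 1.81) and from 2.94 to 4.01 CPM with MitoCDNB (median 3.67). Its groups did not overlap (log2 fold change 1.08, SE 0.17, adjusted p = 0.00194). Eml1 (chr12:108370957-108539617), a microtubule-associated protein, ranged from 1.41 to 2.53 CPM with vehicle (median 2.31) and from 3.62 to 6.80 CPM with MitoCDNB (median 4.13), again with no overlap (log2 fold change 1.03, SE 0.15, adjusted p = 0.00183). Mrap (chr16:90738207-90749785), an accessory protein of melanocortin receptors, ranged from 16 to 29.2 CPM with vehicle (median 21.8) and from 33.2 to 53.2 CPM with MitoCDNB (median 36.9). Every MitoCDNB library was above every vehicle library (log2 fold change 0.82, SE 0.12, adjusted p = 0.00183). Ednrb (chr14:103814625-103844402), the type B endothelin receptor, ranged from 4.19 to 6.41 CPM with vehicle (median 5.05) and from 7.69 to 12.2 CPM with MitoCDNB (median 8.63). It too had no overlap between groups (log2 fold change 0.88, SE 0.14, adjusted p = 0.00327). Agt (chr8:124556534-124569706), the angiotensinogen that hepatocytes secrete, ranged from 274 to 370.3 CPM with vehicle (median 289) and from 403 to 446 CPM with MitoCDNB (median 423). The rise was small beside its level but the groups were separate (log2 fold change 0.47, SE 0.076, adjusted p = 0.00327).

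Genes of signalling and the cytoskeleton with larger but less stable rises followed. Lepr, the leptin receptor, ranged from 1.55 to 3.76 CPM with vehicle (median 2.88) and from 3.30 to 11.2 CPM with MitoCDNB (median 8.10). Its lowest MitoCDNB library, replicate 1, fell inside the vehicle range (log2 fold change 1.49, SE 0.31, adjusted p = 0.0185; adjusted p = 0.0545 without vehicle replicate 2). The actin-binding gene Dbn1 rose by a log2 of 1.27 and the exchange factor gene Arhgef37 by 1.24 (adjusted p = 0.011 and 0.00963), and both kept their calls in all 12 omissions. They were the called members among 37 tested regulators of the actin cytoskeleton, whose median was 0.0041. Of all tested genes, 0.455% were called higher. Without vehicle replicate 1, where 412 genes were called in all, 4 regulators were called higher. MitoCDNB replicate 2, one of the libraries that stood apart, had the highest Dbn1 at 6.00 CPM, and the other 5 ran from 1.58 to 2.86 CPM, against 0.905 to 1.86 CPM with vehicle. Gprc5b, an orphan receptor (log2 1.26; adjusted p = 0.0989 without MitoCDNB replicate 2), and Limch1, a regulator of actomyosin (log2 1.13; adjusted p = 0.0995 without vehicle replicate 5), were called in 5 and 3 of the 12 omissions. Ccdc151, a gene of dynein arm assembly (log2 0.97), Chd1l, a chromatin remodeller (0.84), and Cdr2l (0.80) kept their calls in all 12.

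The 10 falls of at least 2-fold included receptors, a transcription factor and genes of immune cells. Nr3c2 (chr8:76899442-77245012), the mineralocorticoid receptor, ranged from 3.41 to 11.9 CPM with vehicle (median 8.07) and from 2.18 to 3.46 CPM with MitoCDNB (median 2.75). Vehicle replicates 1 and 6 lay at 3.41 and 3.43 CPM, close to the MitoCDNB libraries, while the other 4 vehicle libraries lay between 7.90 and 11.9 CPM. The fall was called in all 12 omissions (log2 fold change -1.51, SE 0.26, adjusted p = 0.00683), but not with the 4 h libraries alone. The related glucocorticoid receptor gene Nr3c1 had a log2 of 0.04 (adjusted p = 0.896).

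Sox5 (chr6:143828425-144781977), a transcription factor of the SoxD group, ranged from 7.73 to 13.4 CPM with vehicle (median 12.1) and from 3.82 to 6.66 CPM with MitoCDNB (median 5.27). The groups did not overlap (log2 fold change -1.07, SE 0.21, adjusted p = 0.0134), and the call held in all 12 omissions and with the 4 h libraries alone. Bank1, a scaffold protein of B cell signalling, ranged from 0.731 to 1.83 CPM with vehicle (median 1.00) and from 0.0885 to 0.668 CPM with MitoCDNB (median 0.404), with no overlap (log2 fold change -1.58, SE 0.32, adjusted p = 0.0138). The falls of Cd209f, a C-type lectin, and Adgrg6, an adhesion receptor, leaned on vehicle replicate 4. That library held 5.06 CPM of Cd209f against 0.240 to 0.532 CPM in the other vehicle libraries, and 6.19 CPM of Adgrg6 against 0.824 to 1.56 CPM. Without it the log2 values were -1.23 (adjusted p = 0.118) for Cd209f and -0.77 (adjusted p = 0.0522) for Adgrg6, against -2.79 and -1.58 with it. Smaller falls that held in all 12 omissions included Akr1c14, a steroid dehydrogenase (log2 -0.63), and Gm4951, which ranged from 56.2 to 78.8 CPM with vehicle (median 64.4) and from 38.8 to 48.3 CPM with MitoCDNB (median 44.9) and had no overlap (log2 fold change -0.57, SE 0.080, adjusted p = 0.00145).

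**Figure D2:**
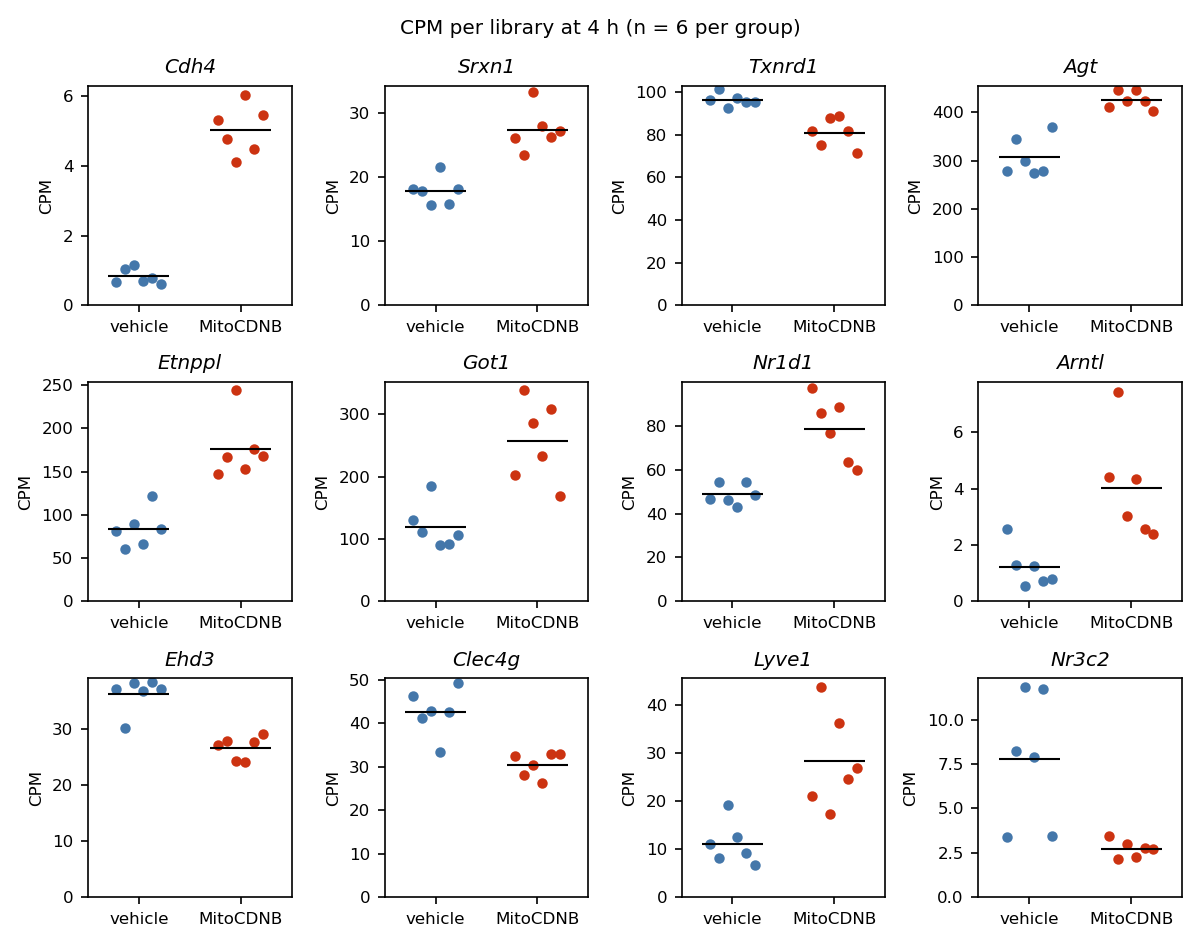
CPM in each of the 12 libraries of 4 h for 12 genes, with a point per library (vehicle blue, MitoCDNB red, n = 6 each) and a line at the group mean, on linear axes that start at 0. Cdh4, Srxn1, Txnrd1, Agt, Etnppl, Nr1d1, Ehd3 and Clec4g show no overlap between the groups, and Nr3c2 shows vehicle replicates 1 and 6 at the level of the MitoCDNB libraries.

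In the glutathione and thioredoxin systems, 1 gene of the cytosol rose and 1 fell, and 0 of 24 tested mitochondrial genes were called. Srxn1 (chr2:152105516-152111376), the sulfiredoxin that repairs overoxidised peroxiredoxins, ranged from 15.7 to 21.6 CPM with vehicle (median 17.9) and from 23.5 to 33.4 CPM with MitoCDNB (median 26.7). No libraries overlapped (log2 fold change 0.62, SE 0.10, adjusted p = 0.00194), and the call held in every fit and omission. Txnrd1 (chr10:82833951-82897712), the cytosolic thioredoxin reductase, ranged from 92.7 to 101 CPM with vehicle (median 95.9) and from 71.4 to 88.6 CPM with MitoCDNB (median 81.7). Here too no libraries overlapped (log2 fold change -0.25, SE 0.056, adjusted p = 0.0307), but the call was kept in 6 of 12 omissions (adjusted p = 0.0717 without vehicle replicate 2). They were the 2 of 26 tested members of the cytosolic glutathione and thioredoxin list to be called, and the list had a median log2 of -0.05. Of all tested genes, 0.824% were called. Srxn1 and Txnrd1 are both textbook targets of NRF2, and they moved in opposite directions.

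The promoter of Srxn1 is shown because Srxn1 was the called rise among NRF2 targets, with the antioxidant response element searched as TGACNNNGC and the AP-1 element as TGANTCA on both strands, in 250 bases before and 50 after the start in RefSeq (GRCm38.p6, chr2:152105274-152105573, plus strand). Capitals mark the matches: both AP-1 matches, which read the same on each strand, and the antioxidant response element, found on the minus strand, after the start.
Srxn1 promoter: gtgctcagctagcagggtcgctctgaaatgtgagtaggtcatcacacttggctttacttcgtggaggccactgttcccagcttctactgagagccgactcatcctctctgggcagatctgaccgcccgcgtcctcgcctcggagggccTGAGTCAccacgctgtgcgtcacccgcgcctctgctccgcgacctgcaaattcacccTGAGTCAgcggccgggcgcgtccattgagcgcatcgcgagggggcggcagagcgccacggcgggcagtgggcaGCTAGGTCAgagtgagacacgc
The antioxidant response element letters were in 12.4% of all 32851 RefSeq promoters of this length. Among called genes with a promoter in that table, 10 of 41 that rose (24.4%) and 4 of 41 that fell (9.76%) held them, against 16.9% of tested genes with a promoter. The AP-1 letters were in 7.81% of all promoters and 6.56% of those of tested genes, in 5 of 41 that rose and in 6 of 41 that fell. A single stretch can match both of these elements. The cyclic AMP response element (TGACGTCA), the E-box (CACGTG), the D-box (TTATGNAA) and the C/EBP-ATF element (TGATGNAA) were in 1, 4, 0 and 1 of the 41 promoters of genes that rose and in 1, 5, 0 and 0 of the 41 of genes that fell. They were in 3.43%, 11.5%, 2.77% and 2.92% of the promoters of tested genes and in 1.79%, 7.15%, 3.38% and 3.97% of all promoters. A match of letters is a description of these windows.

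The mitochondrial counterparts stayed close to 0. Calls in edgeR numbered 0 among 24 tested genes of mitochondrial glutathione and thioredoxin turnover (unadjusted p below 0.05 in 2, 0 with DESeq2 or limma-voom). The thioredoxin reductase Txnrd2 ranged from 26.6 to 33 CPM with vehicle (median 30.9) and from 26.9 to 30.1 CPM with MitoCDNB (median 28.2), so the groups overlapped (log2 fold change -0.08, SE 0.071, adjusted p = 0.66). Peroxiredoxin 3, Prdx3 (log2 0.12, SE 0.07), thioredoxin 2, Txn2 (0.07, SE 0.06), and glutathione reductase, Gsr (-0.15, SE 0.08), were not called. The smallest p of the list belonged to Slc25a11, the oxoglutarate carrier, which ranged from 35.7 to 41 CPM with vehicle (median 39.1) and from 38.9 to 51.3 CPM with MitoCDNB (median 46) (log2 fold change 0.24, SE 0.070, adjusted p = 0.101). Glutathione S-transferases had 0 of 22 called (unadjusted p below 0.05 in 3, 0 with DESeq2 or limma-voom), and among them Gstt3 had the smallest p (log2 0.59, adjusted p = 0.307).

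The wider list of the NRF2 pathway and its targets had 1 of 45 higher and 2 lower, with a median log2 of 0.0015. Of all tested genes, 0.455% were called higher and 0.369% lower. The third called member was Ugt2b35, a glucuronosyltransferase, which ranged from 97.6 to 143 CPM with vehicle (median 116) and from 79.2 to 89.6 CPM with MitoCDNB (median 84). Its groups did not overlap (log2 fold change -0.49, SE 0.10, adjusted p = 0.0153). The catalytic subunit of glutathione synthesis, Gclc, ranged from 118 to 188 CPM with vehicle (median 146) and from 97.3 to 137 CPM with MitoCDNB (median 111), and it did not pass (log2 fold change -0.37, SE 0.14, adjusted p = 0.182). The modifier subunit Gclm (log2 -0.16), the quinone reductase Nqo1 (0.10) and the haem oxygenase Hmox1 (0.35) had adjusted p values of 0.41, 0.873 and 0.572. Among the 32 tested glucuronosyltransferases, sulfotransferases and flavin monooxygenases, Ugt2b38 (log2 -0.40, adjusted p = 0.0127) fell beside Ugt2b35, and 2 members were also called higher without vehicle replicate 1 (Fmo5 and Sult1d1). Reads of such close paralogs may have been shared between them in counting, so the gene within the family is uncertain.

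**Figure D3:**
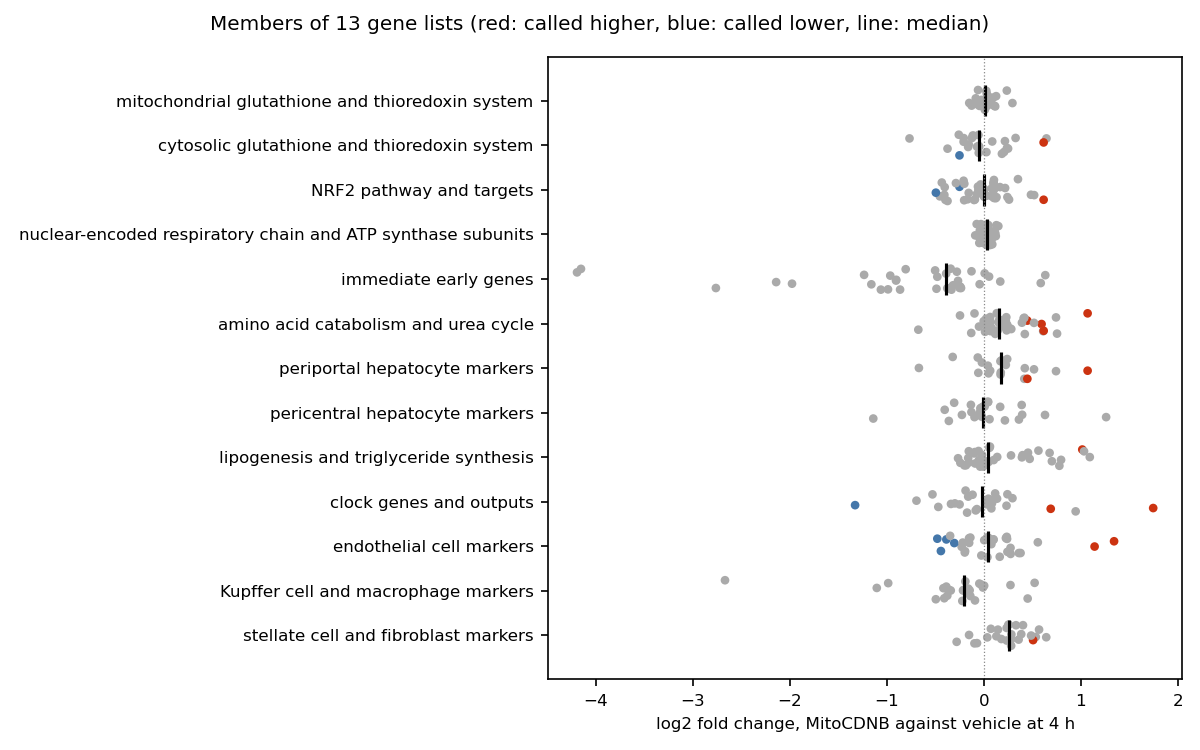
Log2 fold change of MitoCDNB against vehicle at 4 h (x axis) for the tested members of 13 gene lists (y axis), with a point per gene, red where called higher, blue where called lower and grey where not called, and a line at each list's median. Respiratory chain subunits lie in a narrow band around 0.0332, while immediate early genes spread down to -4.19, the value of Fosb, with no member called.

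The lists of genes that build mitochondria had median log2 fold changes near 0, at 0.0332, 0.016 and 0.0401 in the order below, while single members lay further off. Of 46 tested nuclear-encoded subunits of the respiratory chain and ATP synthase, edgeR called 0 and the median was 0.0332. The unadjusted p was below 0.05 in 1 (Ndufs7, log2 0.13, adjusted p = 0.307), and DESeq2 and limma-voom each called 0. Mitochondrial chaperones, proteases and import genes had 0 of 25 called (unadjusted p below 0.05 in 5, 1 higher with DESeq2, 0 with limma-voom), led by the import pore gene Tomm40 (log2 0.21, adjusted p = 0.0997), and 1 was called higher without vehicle replicate 1. Genes of mitochondrial biogenesis, dynamics and mitophagy had 0 of 22 called (unadjusted p below 0.05 in 3, 1 higher with DESeq2, 0 with limma-voom). With both libraries that stood apart left out, edgeR called 1 of them higher. Idh3a, a subunit of the NAD-dependent isocitrate dehydrogenase of the matrix, which belongs to no list here and was chosen after its values were seen, ranged from 18.3 to 27.4 CPM with vehicle (median 23.2) and from 25.3 to 35.2 CPM with MitoCDNB (median 33.7). The lowest MitoCDNB library lay inside the vehicle range (log2 fold change 0.46, SE 0.086, adjusted p = 0.00963), and the call held in all 12 omissions.

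With all libraries, no member of the stress lists was called at 4 h. Over all tested genes, 1981 of 13833 had an unadjusted p below 0.05. The integrated stress response had 0 of 33 called by edgeR (unadjusted p below 0.05 in 4, 0 with DESeq2 or limma-voom), the unfolded protein response 0 of 28 (3, 0 and 0) and heat shock and chaperonin genes 0 of 25 (6, 0 and 0). Targets of p53 had 0 of 26 called (3, 0 and 0), regulators of apoptosis 0 of 27 (8, 0 and 0) and genes of the hypoxia response 0 of 23 (4, 0 and 0). Without vehicle replicate 1, edgeR called 2 members higher in the integrated stress response (Cdkn1a and the alanine aminotransferase gene Gpt2), 2 higher among p53 targets (Cdkn1a and Ei24), 2 lower among apoptosis regulators (Bid and Birc3) and 1 higher in the hypoxia response (Epas1, the gene of HIF-2 alpha). With both libraries that stood apart left out, these counts were 2, 1, 0 and 0. Over all genes, the first fit called 412 and the second 247. The unfolded protein response and the heat shock list had 0 called in both of those fits. Immediate early genes had 0 of 35 called by edgeR (unadjusted p below 0.05 in 9, 4 lower with DESeq2, 0 with limma-voom), with a median log2 of -0.39. In this list the vehicle libraries varied most: the summed level ran from 400 to 1259 CPM with vehicle, with replicates 2 and 3 at 990 and 1259 CPM, and from 347 to 631 CPM with MitoCDNB. Fos, a subunit of the AP-1 factor, ranged from 0.412 to 107 CPM with vehicle (median 1.02) and from 0.493 to 2.87 CPM with MitoCDNB (median 1.11), so the medians were alike and the highest vehicle library lay far above its median (log2 fold change -4.15, SE 1.33, adjusted p = 0.135). Klf2, a factor of quiescent endothelium, had the smallest p of the list and ranged from 4.96 to 12.3 CPM with vehicle (median 8.58) and from 3.22 to 7.09 CPM with MitoCDNB (median 4.37) (log2 fold change -0.91, SE 0.24, adjusted p = 0.0692).

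With all libraries, inflammatory genes gave no call within their lists, and their medians were below 0. Targets of NF-kB with cytokines and chemokines had 0 of 27 called by edgeR (unadjusted p below 0.05 in 9, 1 lower with DESeq2, 0 with limma-voom; median -0.49), interferon genes 0 of 41 (8, 0 and 0; median -0.12) and acute phase proteins 0 of 33 (4, 0 and 0; median -0.16). Without vehicle replicate 1, edgeR called 2 members of the first list lower (Relb and Birc3), 1 of the interferon list lower (Irgm2) and 0 acute phase genes, and the counts were the same with both libraries that stood apart left out. Outside those lists, the cytokine gene Il1a ranged from 1.75 to 6.41 CPM with vehicle (median 3.74) and from 1.07 to 1.93 CPM with MitoCDNB (median 1.51). The groups overlapped in part (log2 fold change -1.37, SE 0.33, adjusted p = 0.0463), and the call was kept in 2 of 12 omissions (adjusted p = 0.106 without MitoCDNB replicate 3).

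Of 43 tested enzymes of amino acid breakdown and urea synthesis, 4 were called higher and 0 lower, where 0.455% of all tested genes were called higher and 0.369% lower, and the median log2 was 0.16 (unadjusted p below 0.05 in 18; 7 higher with DESeq2 and 6 with limma-voom). Etnppl (chr3:130617448-130637521), a phospholyase that breaks down phosphoethanolamine, ranged from 60.1 to 122 CPM with vehicle (median 83) and from 147 to 244 CPM with MitoCDNB (median 168). All MitoCDNB libraries were above all vehicle libraries (log2 fold change 1.07, SE 0.19, adjusted p = 0.00683). Cps1 (chr1:67123026-67231259), the carbamoyl phosphate synthetase that feeds the urea cycle, ranged from 2305 to 3268 CPM with vehicle (median 2684) and from 3297 to 4313 CPM with MitoCDNB (median 3823). It too had separate groups (log2 fold change 0.45, SE 0.091, adjusted p = 0.0142).

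Slc25a15 (chr8:22375551-22398597), the mitochondrial ornithine carrier of the same cycle, ranged from 164 to 234 CPM with vehicle (median 226) and from 274 to 387 CPM with MitoCDNB (median 303), with no overlap (log2 fold change 0.60, SE 0.12, adjusted p = 0.0134). Mat1a, which makes S-adenosylmethionine in liver, rose from a median of 1314 to 2164 CPM (log2 fold change 0.62, SE 0.13, adjusted p = 0.0205; adjusted p = 0.0623 without vehicle replicate 2). Other steps of the cycle had values above 0 without passing the test. Argininosuccinate lyase, Asl, ranged from 335 to 533 CPM with vehicle (median 422) and from 469 to 657 CPM with MitoCDNB (median 578) (log2 fold change 0.42, SE 0.11, adjusted p = 0.0585), and argininosuccinate synthase, Ass1, had a log2 of 0.42 (adjusted p = 0.129). Aass of lysine breakdown (0.61, adjusted p = 0.061) and Hpd of tyrosine breakdown (0.41, adjusted p = 0.0891) were likewise not called, and Otc, the ornithine transcarbamylase, had a log2 of -0.05. The count of called members was 10 without vehicle replicate 1, and 1 with the 4 h libraries alone. Those fits called 412 and 18 genes in all.

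Periportal hepatocyte markers, a list that shares Etnppl and Cps1 with the amino acid list, had 2 of 20 higher and 0 lower and a median of 0.17 (unadjusted p below 0.05 in 8), and 5 were called higher without vehicle replicate 1. With all libraries, 0.455% of all tested genes were called higher and 0.369% lower, which is 114 genes in all. The fit without vehicle replicate 1 called 412 genes in all. Pericentral markers had 0 of 26 called by edgeR (unadjusted p below 0.05 in 4, 0 with DESeq2 or limma-voom) and a median of -0.01, with 1 called higher without vehicle replicate 1. The difference between the 2 lists was not tested.

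In gluconeogenesis and the fasting response, 4 of 26 tested genes were called higher without vehicle replicate 1, where 412 genes were called in all. With all libraries 1 rose and 0 fell, against 0.455% and 0.369% of all tested genes, and the list median was 0.11. The riser was Got1 (chr19:43499752-43524605), the cytosolic aspartate aminotransferase of the malate-aspartate shuttle, which ranged from 90.3 to 185 CPM with vehicle (median 109) and from 169 to 339.6 CPM with MitoCDNB (median 260.2). The lowest MitoCDNB library lay below the highest vehicle library, replicate 3 (log2 fold change 1.10, SE 0.21, adjusted p = 0.0127), and the call held in all 12 omissions. The gluconeogenic enzymes Pck1 (log2 -0.67, adjusted p = 0.378) and G6pc (0.17, adjusted p = 0.901) were not called. Summed over the list, vehicle replicates 1 and 3 and MitoCDNB replicate 2 lay at 9937, 8022 and 10200 CPM and the other 9 libraries between 4665 and 6065 CPM.

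A gene of lipid synthesis rose. Elovl5 (chr9:77917364-77984519), an elongase of polyunsaturated fatty acids, ranged from 91.7 to 148 CPM with vehicle (median 119) and from 152 to 354 CPM with MitoCDNB (median 215). Its groups did not overlap (log2 fold change 1.01, SE 0.20, adjusted p = 0.0145), and it was the 1 called member of 36 tested genes of lipogenesis and triglyceride synthesis, whose median was 0.0381. With all libraries, 0.455% of all tested genes were called higher. Without vehicle replicate 1, 5 members were called higher, among them the lipid droplet genes Plin4 and Plin5 and the triglyceride lipase gene Pnpla2. With both libraries that stood apart left out 4 were. Those fits called 412 and 247 genes in all. The call of Elovl5 held in all 12 omissions but not with the 4 h libraries alone. Fatty acid oxidation and ketogenesis had 0 of 41 called by edgeR (unadjusted p below 0.05 in 3, 0 with DESeq2 or limma-voom). Stbd1, which anchors glycogen to membranes, was the 1 of 21 glycogen genes to be called (log2 -0.46, adjusted p = 0.0413, and 0.1 without MitoCDNB replicate 3). Of 27 genes of metallothioneins, zinc and iron the hepcidin regulator Hfe2 rose (log2 0.52, adjusted p = 0.0134), with 2 called higher without vehicle replicate 1. Over all tested genes, 0.455% were called higher and 0.369% lower with all libraries.

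Of 26 tested clock genes and outputs, 2 rose and 1 fell, where 0.455% of all tested genes were called higher and 0.369% lower. The circadian clock is a loop in which ARNTL with CLOCK drives the repressors of its own gene, among them NR1D1. Nr1d1 (chr11:98767932-98775333) ranged from 43.1 to 54.4 CPM with vehicle (median 47.5) and from 59.9 to 97.2 CPM with MitoCDNB (median 81.4). There was no overlap (log2 fold change 0.69, SE 0.14, adjusted p = 0.0138), and it is 1 of the 11 core genes. Arntl (chr7:113207465-113314126) ranged from 0.563 to 2.58 CPM with vehicle (median 1.03) and from 2.40 to 7.45 CPM with MitoCDNB (median 3.69). Vehicle replicate 1 and MitoCDNB replicate 2 were the highest of their groups, at 2.58 and 7.45 CPM, and the groups overlapped (log2 fold change 1.75, SE 0.40, adjusted p = 0.0374). Its call was kept in 3 of 12 omissions (adjusted p = 0.0893 without vehicle replicate 5).

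Ccrn4l, the gene of nocturnin, a rhythmic phosphatase of NADP(H), ranged from 15.8 to 59.3 CPM with vehicle (median 21.7) and from 6.72 to 16 CPM with MitoCDNB (median 9.54). Vehicle replicate 3 alone held 59.3 CPM, and the other vehicle libraries 15.8 to 24.8 CPM (log2 fold change -1.33, SE 0.31, adjusted p = 0.0462; adjusted p = 0.103 without MitoCDNB replicate 3). The other 23 of 26 clock genes were not called, among them Per1 (log2 -0.53), Per2 (-0.07), Dbp (-0.30) and Nr1d2, a paralog of Nr1d1 (-0.34, adjusted p = 0.0998). The list median was -0.02.

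The promoter of Arntl is shown because Arntl and Nr1d1, whose protein represses Arntl through the ROR response element, were both called. That element was searched by its name's consensus on both strands after the values were seen, in the RefSeq promoter of a start at which it was found (GRCm38.p6, chr7:113207261-113207560, plus strand). Capitals mark the match, which lies just after the start.
Arntl promoter: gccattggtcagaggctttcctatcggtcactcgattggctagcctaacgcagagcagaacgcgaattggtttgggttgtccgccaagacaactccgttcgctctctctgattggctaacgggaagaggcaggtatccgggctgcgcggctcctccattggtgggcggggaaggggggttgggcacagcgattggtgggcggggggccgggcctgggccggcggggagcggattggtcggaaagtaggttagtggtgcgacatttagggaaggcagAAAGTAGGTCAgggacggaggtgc
The element was in 0.384% of all 32851 promoters of this length, and Arntl was the 1 of 41 risers with a promoter to hold it. Another RefSeq start of Arntl had no match in its window.

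Of 32 tested endothelial markers, 2 were called higher and 4 lower, where 0.455% of all tested genes were called higher and 0.369% lower, and the median was 0.0422 (unadjusted p below 0.05 in 12). With the 4 h libraries alone, 0 were called higher and 1 lower. The tissue was measured in bulk, so fewer cells of a type and less RNA per cell cannot be told apart. Ehd3 (chr17:73804134-73832094), an endocytic ATPase enriched in sinusoidal endothelium, ranged from 30.1 to 38.3 CPM with vehicle (median 37.1) and from 24.1 to 29.1 CPM with MitoCDNB (median 27.3). The groups were separate (log2 fold change -0.44, SE 0.077, adjusted p = 0.00515). Clec4g (chr8:3707064-3720651), a lectin of the same cells, ranged from 33.5 to 49.3 CPM with vehicle (median 42.7) and from 26.2 to 33 CPM with MitoCDNB (median 31.5), without overlap (log2 fold change -0.48, SE 0.083, adjusted p = 0.00515). Kdr, the VEGF receptor (log2 -0.39; adjusted p = 0.0951 without MitoCDNB replicate 2), and Oit3 (-0.30; adjusted p = 0.101 without MitoCDNB replicate 5) fell less.

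Rises in the same list were larger. Lyve1, the hyaluronan receptor, ranged from 6.66 to 19.2 CPM with vehicle (median 10.2) and from 17.4 to 43.9 CPM with MitoCDNB (median 25.8). The groups overlapped by little (log2 fold change 1.34, SE 0.30, adjusted p = 0.0389), and the call was kept in 5 of 12 omissions (adjusted p = 0.0893 without vehicle replicate 5). Nos3, the endothelial nitric oxide synthase, ranged from 2.90 to 6.37 CPM with vehicle (median 4.53) and from 5.70 to 19.3 CPM with MitoCDNB (median 8.84). MitoCDNB replicate 2 held the highest value, and the other 5 ran from 5.70 to 10.6 CPM (log2 fold change 1.14, SE 0.23, adjusted p = 0.0142). The call held in all 12 omissions. The endothelial genes Pecam1 and Cdh5 were not called, at log2 values of 0.10 and 0.36 (adjusted p = 0.678 and 0.0711). The summed level of the list ran from 575 to 684 CPM with vehicle and from 581 to 699 CPM with MitoCDNB.

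Myeloid genes that fell were outside the marker list. Kupffer cell and macrophage markers had 0 of 26 called by edgeR (unadjusted p below 0.05 in 8, 0 with DESeq2 or limma-voom), with a median of -0.20, and none of the 26 was at 0 in all libraries. Clec4f, the marker most restricted to Kupffer cells, had a log2 of 0.00 (SE 0.11). Marco, a scavenger receptor, ranged from 2.97 to 90.8 CPM with vehicle (median 3.78) and from 1.94 to 4.32 CPM with MitoCDNB (median 2.87) (log2 fold change -2.67, SE 0.77, adjusted p = 0.105), and it was the 1 marker called lower without vehicle replicate 1. Vehicle replicate 4 held the highest value, and the other 5 vehicle libraries held 2.97 to 5.31 CPM. Among genes outside the list, Mrc1, the mannose receptor of macrophages and sinusoidal endothelium, ranged from 29 to 37.6 CPM with vehicle (median 34) and from 21.4 to 27 CPM with MitoCDNB (median 25). Its groups did not overlap (log2 fold change -0.43, SE 0.087, adjusted p = 0.0142; chosen after its values were seen).

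Adgre4 (log2 -1.04; adjusted p = 0.0861 without MitoCDNB replicate 4) and Clec4a3 (-1.09; adjusted p = 0.0967 without vehicle replicate 4), receptors of myeloid cells, were highest in vehicle replicate 4, at 11.1 and 3.32 CPM. Kupffer cell markers as a sum were highest in the same library, and their part in these falls was not tested. Without vehicle replicate 4, neither passed, and the log2 values were -0.62 for Adgre4 and -0.73 for Clec4a3.

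Stellate cell and fibroblast markers had 1 of 25 higher and 0 lower, against 0.455% and 0.369% of all tested genes. The list median was 0.26 (unadjusted p below 0.05 in 9, 2 higher with DESeq2 and 1 with limma-voom). The marker called by edgeR was Vipr1, a receptor of vasoactive intestinal peptide. Vipr1 ranged from 19.5 to 21.9 CPM with vehicle (median 21.3) and from 23.9 to 39 CPM with MitoCDNB (median 28.8). The groups did not overlap (log2 fold change 0.51, SE 0.12, adjusted p = 0.0346), but the call was kept in 4 of 12 omissions (adjusted p = 0.0833 without MitoCDNB replicate 2). Summed over the list, vehicle ran from 288 to 429 CPM and MitoCDNB from 341 to 544 CPM, so the groups overlapped. Neutrophil markers had 0 of 9 tested members called by edgeR (unadjusted p below 0.05 in 3, 1 lower with DESeq2, 0 with limma-voom), with S100a9 called lower without vehicle replicate 1, B cell markers 0 of 10 (1, 0 and 0) and T and natural killer cell markers 0 of 10 (0, 0 and 0).

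A further set of genes was called when vehicle replicate 1 was left out. Among genes tested in both fits, 297 were gained, 162 higher and 135 lower. In 287 of these, vehicle replicate 1 lay on the MitoCDNB side of the median of the other vehicle libraries, and in 244 it lay outside their range. The genes were picked by leaving that library out, which favours both outcomes, so these counts describe the gained genes and support nothing further. Over all 13833 genes the shares were 63.4% and 42.9%. Fam107a, an actin-associated gene induced by glucocorticoids, lay at 6.41 CPM in vehicle replicate 1, 0.141 to 0.969 CPM in the other vehicle libraries and 3.34 to 20.7 CPM with MitoCDNB. Without that library it was called (log2 4.56, SE 0.58, adjusted p = 0.000269), and with all libraries it was not (log2 2.68, adjusted p = 0.0708).

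The cell cycle inhibitor gene Cdkn1a lay at 50.1 CPM in vehicle replicate 1, 1.47 to 4.83 CPM in the other vehicle libraries and 7.43 to 111 CPM with MitoCDNB (log2 3.75, SE 0.68, adjusted p = 0.00566 without vehicle replicate 1; adjusted p = 0.381 with it). Fkbp5, a co-chaperone of the glucocorticoid receptor, lay at 198 CPM in vehicle replicate 1, 28.7 to 86.8 CPM in the other vehicle libraries and 109 to 207 CPM with MitoCDNB (log2 1.70, SE 0.27, adjusted p = 0.00197 without it). The lipid droplet protein gene Plin5 lay at 136 CPM in vehicle replicate 1, 21.2 to 30.5 CPM in the other vehicle libraries and 46.6 to 164 CPM with MitoCDNB (log2 1.84, SE 0.23, adjusted p = 0.000245 without it). In each of these genes vehicle replicate 1 sat at the level of the MitoCDNB libraries. MitoCDNB replicate 2, which also stood apart, was kept in these fits and held the highest MitoCDNB value of each gene. Values without both libraries are not given for them. Lrrc16a, a regulator of actin capping (1.99 on the log2 scale), and the serine dehydratase Sds (1.26) followed the same order, as did Map3k6 (1.97).

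Among the falls gained were Tlr2, a receptor of bacterial lipoproteins, at 0.940 CPM in vehicle replicate 1, 1.60 to 19.1 CPM in the other vehicle libraries and 1.12 to 2.87 CPM with MitoCDNB (log2 -2.10, SE 0.47, adjusted p = 0.0196), the NF-kB subunit Relb (-1.76), Socs1 (-1.87) and the neutrophil gene S100a9 (-1.58). Metallothionein genes were not called even then. Mt1 lay at 1172 CPM in vehicle replicate 1, 17.4 to 128 CPM in the other vehicle libraries and 316 to 724 CPM with MitoCDNB (log2 2.90, SE 0.80, adjusted p = 0.0535; with all libraries log2 0.88, adjusted p = 0.734), and Mt2 at 1039 CPM in vehicle replicate 1, 3.53 to 88.5 CPM in the other vehicle libraries and 109 to 486 CPM with MitoCDNB (log2 2.69, SE 1.04, adjusted p = 0.176). Of 29 tested corticosteroid receptors and glucocorticoid-induced genes, 1 (Nr3c2) was called in the fit of all libraries, where 0.824% of all tested genes were called. Without vehicle replicate 1, 3 were called higher and 1 lower, among 412 calls over all genes. The summed level of that list was 10940 CPM in vehicle replicate 1, 9705 CPM in MitoCDNB replicate 2, 6628 CPM in vehicle replicate 3 and 2571 to 4612 CPM in the other 9. In Cdh4, Srxn1 and Agt, by contrast, vehicle replicate 1 lay within the range of the other vehicle libraries, at 0.662, 18.1 and 279 CPM. Whether this mouse was handled differently is not stated in the labels, and what sets the library apart from the other vehicle livers was not tested. Vehicle means at 4 h, and the counts of 114 and 412, depend on whether it is kept.

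**Figure D4:**
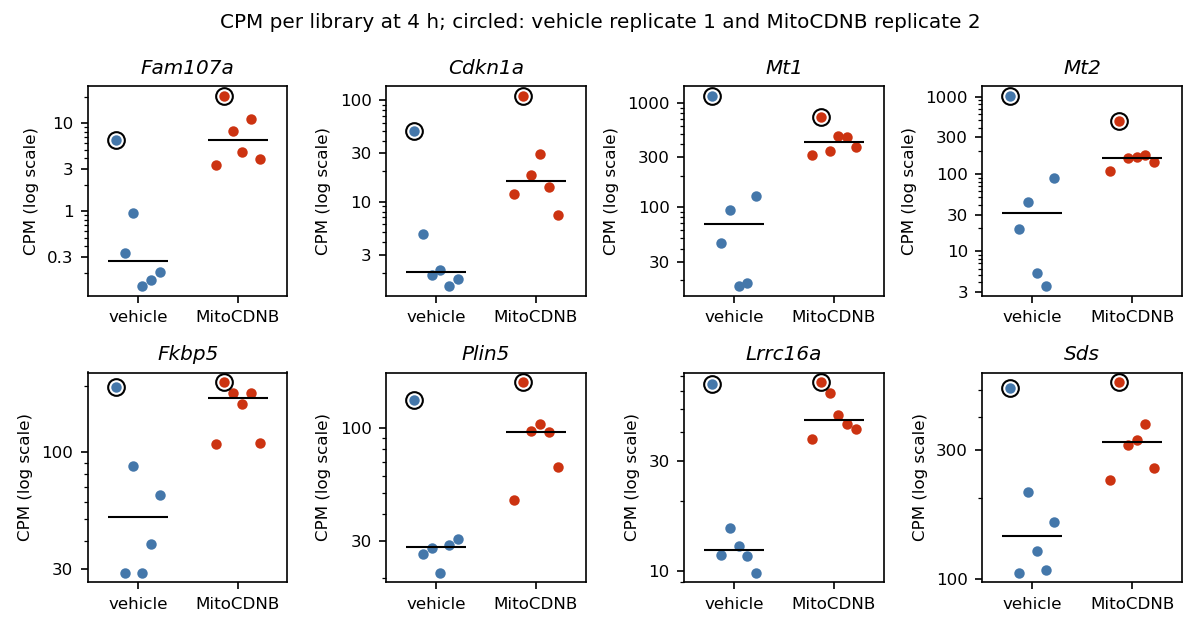
CPM in each library of 4 h (log axes) for 8 genes, with a point per library (vehicle blue, MitoCDNB red), a line at the group median, and circles around vehicle replicate 1 and MitoCDNB replicate 2. For Fam107a, vehicle replicate 1 lies at 6.41 CPM, among the MitoCDNB libraries, while the other 5 vehicle libraries lie at or below 0.969 CPM.

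Few of the genes called at 4 h were also called at 1 h. At 1 h, 909 genes were called (6.57% of those tested), and 10 of the 114 genes of 4 h were among them in the same direction, which is 8.77% of the calls at 4 h and 1.10% of those at 1 h. Those 10 were Ctla2a, Agt, Etnppl, Got1, Dbn1, Hfe2, Lyve1 and Exph5, which rose at both times, and Gm4951 and Ldah, which fell. For Ctla2a the log2 values were 1.23 at 1 h and 1.08 at 4 h (difference -0.15, SE 0.23, adjusted p = 0.822), and for Etnppl 0.88 and 1.07 (difference 0.19, SE 0.26, adjusted p = 0.796). A further 99 of the 114 were not called at 1 h.

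The difference between the effects at the 2 times was tested in the same fit and called for 563 genes (4.07%), with the effect higher at 4 h in 2.38% of those tested and lower in 1.69%. Of the 563, 42 were among the 114, and for the other 72 of the 114 a difference between the times was not shown. The 114 were picked by their effect at 4 h, which is part of the difference. That choice favours called differences, so the 42 cannot be set against the 4.07% of all genes. Cdh4 had a log2 of -0.23 at 1 h (adjusted p = 0.704), and its effect at 4 h was larger (difference 2.83, SE 0.30, adjusted p = 2.66e-06). Arhgef37 went from -0.27 to 1.24 (difference 1.51, SE 0.32, adjusted p = 0.00635) and Nr3c2 from -0.08 to -1.51 (difference -1.43, SE 0.36, adjusted p = 0.0253). For Srxn1 the 1 h value was 0.23 (adjusted p = 0.19), and the difference did not pass (difference 0.39, SE 0.13, adjusted p = 0.111).

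Another 5 of the 114 had been called in the opposite direction at 1 h. Cbx2, a subunit of Polycomb repressive complexes, fell at 1 h (log2 -0.96) and rose at 4 h (0.75; difference 1.71, SE 0.22, adjusted p = 4.12e-05). Nr1d1 also fell at 1 h (-0.78) and rose at 4 h (0.69; difference 1.47, SE 0.19, adjusted p = 5.51e-05). Il1a rose at 1 h (1.25) and fell at 4 h (-1.37; difference -2.61, SE 0.44, adjusted p = 0.000993). The other 2 were Fam109a (-0.54 and 0.57) and the endonuclease gene Apex2 (-0.43 and 0.53).

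Immediate early genes had 19 of 35 higher at 1 h, when 2.7% of all tested genes were higher, and 0 called at 4 h. For Nr4a1, an orphan nuclear receptor of this list, chosen after its values were seen, the effects were 3.87 at 1 h and -1.98 at 4 h (difference -5.85, SE 0.92, adjusted p = 0.000703). For Klf2 they were 1.14 and -0.91 (difference -2.05, SE 0.33, adjusted p = 0.000706). For Gclc, also chosen in that way, neither time passed on its own (0.34 and -0.37), while the difference did (difference -0.72, SE 0.19, adjusted p = 0.0308), although its call was lost in 9 of the 24 single omissions.

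**Figure D5:**
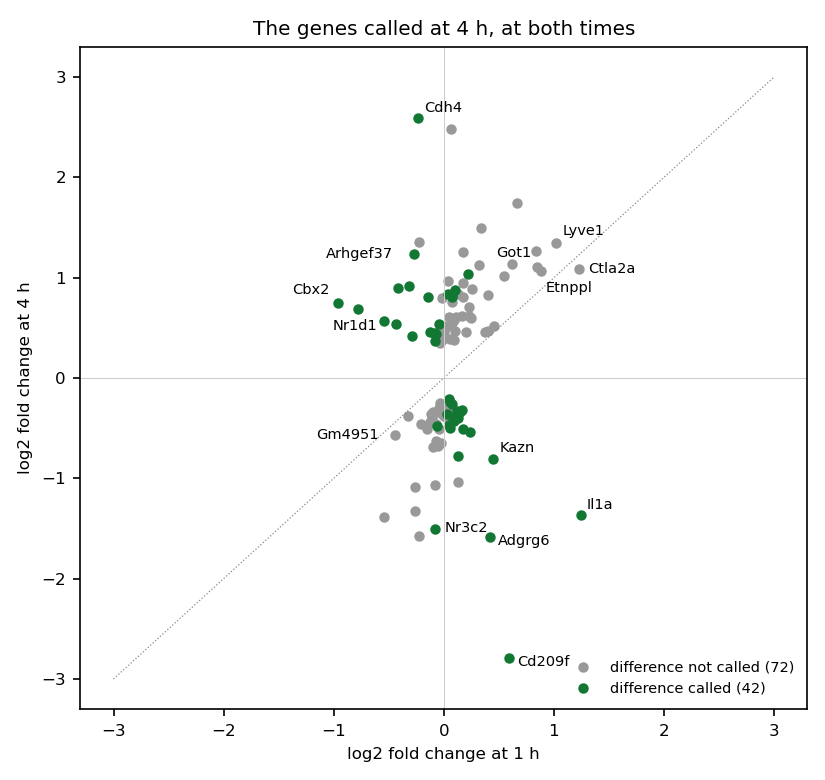
Log2 fold change of MitoCDNB against vehicle at 1 h (x axis) and at 4 h (y axis) for the 114 genes called at 4 h, with a point per gene, green where the difference between times was called (42) and grey where it was not (72), and a dotted line of equal effects. Cdh4 lies at 2.59 at 4 h and -0.23 at 1 h, and Il1a at -1.37 and 1.25.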

How the data were processed

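Polyadenylated RNA of medial liver lobes was sequenced from libraries made with the NEBNext Ultra RNA kit, per the labels' protocols. The authors deposited raw read counts for each gene symbol in each library, as whole numbers. CASAVA 1.8.4, Trim Galore, HISAT2, DESeq2 and build mm10 are named in the submitters' processing notes. The counter, annotation and use of strand were not given in the sources used here. Values of overlapping, antisense and near-identical genes are therefore uncertain.

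Of 24421 genes in the table, 4653 had no count. The edgeR function filterByExpr (minimum count 10, total 15) kept 13833 and dropped 0.0306% of all reads counted. Libraries were scaled by TMM and fitted with 4 group means over all 24 libraries in edgeR 4.0.16 (R 4.3.3, robust quasi-likelihood F test). Adjustment followed Benjamini and Hochberg over all genes tested, and a gene was called under 0.05. Contrasts were MitoCDNB against vehicle at 4 h, at 1 h, and the difference of the 2 effects. Values are CPM on TMM-scaled library sizes. The SE came from the log2 fold change and F. The common biological coefficient of variation was 0.179. Alternatives used DESeq2 1.42.0, limma 3.58.1 (voom), other size factors and filters, 4 h libraries alone, a replicate block and omission of each library.

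The gene lists (52) and the comparison were chosen with earlier results of these data known. The text names the 15 genes with the largest rises and the 15 with the largest falls among called genes of at least 1 CPM in the higher group, predicted genes aside, with at least 5 of 6 MitoCDNB libraries beyond the vehicle mean, the 10 smallest p, and up to 4 called members of each list, or, where none was called, its member of smallest p; other genes were chosen after their values were seen, and a few results that the rule would name are not reported here. The 6 livers of a group are separate mice, per the labels' protocols. Duplicate libraries were looked for within each group and not found. Coordinates are from GENCODE M21 (GRCm38), found by symbol for 144 of 150 genes, and promoters are from RefSeq, found for 82 of the 114 called genes. The model was tested on simulated counts of 13695 genes, drawn separately for each gene, with 4 false calls.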

Additional observations from a re-analysis of the deposited data

Results flagged for a closer look

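In 26 of 352 gene and group pairs at 4 h, 1 library lay apart from the other 5 of its group in log2 CPM by more than the Dixon test allows. The genes were those called or named here, some of them picked by leaving vehicle replicate 1 out. That choice affects the count, so it cannot be set against a chance rate. Vehicle replicate 4 was the high library for Adgrg6 (6.19 CPM), Cd209f (5.06), Marco (90.8), Cd79b (1.55), Lair1 (2.95) and Lst1 (2.33), most of them genes of immune cells. Vehicle replicate 1 was high for Chd1l (13.5), Slain2 (28.7), Cdkn1a (50.1), Plin4 (77.6), Lrrc16a (64.3) and Plin5 (136). For Syne2 vehicle replicate 5 was high at 37.4, and for Ccrn4l vehicle replicate 3 at 59.3. Vehicle replicate 2 was low for Eml1 (1.41) and Ehd3 (30.1) and high for Adcy4 (5.46). Among MitoCDNB libraries, replicate 2 was low for Ldah (14.7) and Tomm40 (30.3) and high for Clic4 (66.7), Cyp27a1 (563) and Adcy1 (7.03). Replicate 6 was low for Ramp3 (0.277), replicate 4 low for Nras (10.7), replicate 3 high for Etnppl (244) and replicate 1 high for Tlr2 (2.87).

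For 32 genes named here the effect at 4 h differed from that at 1 h in a test of the difference itself (edgeR, adjusted over all genes tested). Most were named for their values at 4 h, which are part of the difference. The count of 32 therefore cannot be set against the share of all genes. On the log2 scale, as 4 h minus 1 h, it was higher at 4 h for Cdh4 (2.83), Cbx2 (1.71), Arhgef37 (1.51), Nr1d1 (1.47), Hes1 (1.31), Fam109a (1.11), Apex2 (0.965), Thbs2 (0.944), Eml1 (0.816), Chd1l (0.804), Ednrb (0.777), Mrap (0.747), Cdr2l (0.73), Idh3a (0.591) and Cps1 (0.534). It was lower at 4 h for Nr4a1 (-5.85), Cd209f (-3.39), Il1a (-2.61), S100a9 (-2.54), Klf2 (-2.05), Adgrg6 (-2.0), Per1 (-1.55), Nr3c2 (-1.43), Kazn (-1.25), Spc25 (-0.908), Gclc (-0.719), Ugt2b35 (-0.555), Ugt2b38 (-0.529), Mrc1 (-0.511), Kdr (-0.485), Pard3 (-0.484) and Clec4g (-0.419). Without vehicle replicate 4 of 4 h the difference was -1.82 for Cd209f (adjusted p = 0.0356) and -1.19 for Adgrg6 (adjusted p = 0.00648). Of 24 single omissions, the call was lost in 20 for Thbs2, 17 for Per1, 16 for Cd209f, 14 for Clec4g, 9 for Spc25 and for Gclc, 8 for Eml1, 7 for Kdr, 4 for Cdr2l and 2 for Ednrb.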

How the results depend on the processing

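The number of genes called at 4 h was 114. It was 348 with DESeq2 (195 higher and 153 lower), 18 with the 4 h libraries alone (15 and 3) and 247 with both libraries that stood apart left out (146 and 101), an alternative added after the data were seen. Without single libraries it ran from 63 to 412, and the 412 came without vehicle replicate 1. More than 1.5 times fewer calls came without MitoCDNB replicate 3 (63), 4 (72) or 5 (72) and without vehicle replicate 2 (65) or 5 (73). Other size factors (116 and 118), no count filter (88), a filter on mean CPM (122), limma-voom (120, 77 higher and 43 lower), no robust estimation (121) and removal of major urinary protein genes before scaling (116, added after the data were seen) stayed within 1.5 times of the main count. The cause of these shifts was not tested. The counts at 1 h (720 to 1063) and of differences between times (439 to 745) stayed within 1.5 times of 909 and 563. Replicate number as a block gave 84 calls (56 higher and 28 lower), of which 59 were among the 114. The numbers did not pair the samples: 3 of 6 same-numbered pairs had a correlation of deviations over 0.1 (range -0.213 to 0.265), and 2 of 6 vehicle and 2 of 6 MitoCDNB libraries were closest to their own number. Of the named values, 1 changed sign: Tfrc, a transferrin receptor gene that was not called, had a log2 of -0.0272 without MitoCDNB replicate 3, of 0.16 with all libraries and of up to 0.327 in the other omissions. Of the 114 genes, 48 were called in all 12 single omissions. Size factors shifted the median of all genes by less than 0.1 (-0.0044, -0.00464 and 0.00492).

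In counts simulated gene by gene with the fitted spread, changes were put into genes with a mean over 1 CPM. Changes of 1.5-fold were recovered in 61.2% of them, of 2-fold in 92.5% and of 4-fold in 100%, so smaller shifts can be missed at this spread and n. Shifts that 1 library shares across genes were not simulated, so these percentages can differ from those in the real libraries. Genes with group means under 1 CPM, such as Ramp3, Osbpl10 and Slamf8, rest on few reads.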

Other observations

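Genes of development, secreted factors and cell shape among the 114, all chosen after their values were seen, extend the account above. Hes1, a repressor downstream of Notch, ranged from 2.76 to 5.53 CPM with vehicle (median 4.56) and from 4.88 to 9.90 CPM with MitoCDNB (median 8.88) (log2 fold change 0.89, SE 0.20, adjusted p = 0.0269; adjusted p = 0.0678 without vehicle replicate 2). Gdf2, the gene of BMP9, which acts on endothelium, ranged from 6.03 to 8.25 CPM with vehicle (median 7.43) and from 8.08 to 13.6 CPM with MitoCDNB (median 10.8) (log2 fold change 0.58, SE 0.12, adjusted p = 0.0204; adjusted p = 0.0648 without MitoCDNB replicate 4). Nt5e, the ectonucleotidase that makes adenosine, ranged from 1.40 to 3.52 CPM with vehicle (median 2.38) and from 3.70 to 5.01 CPM with MitoCDNB (median 4.47) (log2 fold change 0.85, SE 0.16, adjusted p = 0.0127), and its groups did not overlap. The metalloproteinase genes Adam15 (log2 0.84) and Bmp1 (0.46; adjusted p = 0.0782 without vehicle replicate 5) and the matrix gene Thbs2 (0.80; adjusted p = 0.106 without MitoCDNB replicate 2) rose. Among genes of the actin cytoskeleton and cell polarity, Actn1 (-0.51), Lima1 (-0.50), Pard3 (-0.34), Sh3d19 (-0.39) and Farp1 (-0.37; adjusted p = 0.0567 without vehicle replicate 2) fell. Pard3 ranged from 34.3 to 43.6 CPM with vehicle (median 41.8) and from 30.4 to 33.9 CPM with MitoCDNB (median 31.9), with no overlap, and was called in all 12 omissions. Rrm2, a subunit of ribonucleotide reductase, rose (log2 0.76; adjusted p = 0.105 without MitoCDNB replicate 2) while Spc25, a kinetochore gene, fell (-0.78; adjusted p = 0.095 without vehicle replicate 5). Growth arrest and cyclin genes had 0 of 29 called by edgeR (unadjusted p below 0.05 in 2, 0 with DESeq2 or limma-voom).

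Further gene groups had no called member in the fit of all libraries. Over all tested genes, 1981 of 13833 had an unadjusted p below 0.05, and the fit without vehicle replicate 1 called 412 genes. Xenobiotic cytochromes P450 and their receptors had 0 of 42 called by edgeR (unadjusted p below 0.05 in 3, 0 with DESeq2 or limma-voom). Cyp2b10, a target of the receptor CAR and the member of smallest p, ranged from 0.112 to 2.82 CPM with vehicle (median 0.341) and from 1.00 to 11.3 CPM with MitoCDNB (median 3.71) (log2 fold change 2.42, SE 0.74, adjusted p = 0.119), and it was called without vehicle replicate 1 (log2 3.14, SE 0.79, adjusted p = 0.0361), which held 2.82 CPM. In the same order, coagulation and complement had 0 of 37 (5, 0 and 0), and cytosolic ribosomal proteins 0 of 40 (0, 0 and 0). The proteasome had 0 of 31 (5, 0 and 0), autophagy and lysosome genes 0 of 40 (8, 0 and 0), and major urinary proteins 0 of 20 (1, 0 and 0) with a median log2 of -0.23. Genes of bile acid synthesis and transport had 0 of 29 (unadjusted p below 0.05 in 9, 1 lower with DESeq2, 0 with limma-voom). For the growth hormone and IGF axis it was 0 of 22 (unadjusted p below 0.05 in 4, 2 higher and 1 lower with DESeq2, 0 with limma-voom). The list of hepatocyte markers and transcription factors had 0 of 28 called by edgeR (unadjusted p below 0.05 in 5, 1 higher with DESeq2, 0 with limma-voom). Without vehicle replicate 1, calls in these groups were 1 higher in coagulation and complement (Masp1), 1 lower in autophagy and lysosome genes (Ulk2), 2 higher and 1 lower in bile acid genes and 1 lower in the growth hormone axis, and growth arrest and cyclin genes had 1 higher (Cdkn1a). Markers of cholangiocytes and gallbladder had 0 of 15 called (3, 0 and 0), and edgeR, DESeq2 and limma-voom called 0 of 8 erythroid, 0 of 12 neuron and glia, 0 of 2 pancreatic acinar and 0 of 3 skeletal muscle markers, none of which had an unadjusted p below 0.05.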
